A study of Mus musculus with 24 samples.

Results

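The genes described here are those of the disease-associated microglia state, an activated state of the brain's resident macrophages, measured in the cerebellum of mice lacking Derlin-1 or Derlin-2. The 10 genes listed were Trem2, Tyrobp, Apoe, Cst7, Itgax, Axl, Clec7a, Lpl, Spp1 and Cd9. A probe belonged to one of them when its transcript accession led to that gene in a reference gene table. This gave 14 probes for 9 genes, of 56605 probes and 22911 genes on the array. Clec7a received no probe through the table and was not analysed here. All 9 genes entered the fit of 16934 genes, which took probes well above background on both arrays of at least 1 group. Trem2, Tyrobp, Apoe, Axl, Lpl, Spp1 and Cd9, 7 of the 9, were well above background on all 24 arrays. Cst7 and Itgax were so on 8 arrays each and passed the filter only through Derlin-1 knockout groups, so that a difference there was fixed by the filter.

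The members were chosen from the genes of a known microglial state with results of these data in view, above all the difference between Derlin-1 knockouts and controls without 4PBA. That comparison is therefore given as levels and differences with no p-value for a member, and how many passed the threshold is printed only beside the share of all genes that did.

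In mice the state is built in steps. TREM2 is a receptor on microglia that binds lipids and lipoproteins, and TYROBP, also known as DAP12, is the adaptor that passes its signal on through the kinase SYK. Genes of the state include Apoe, the lipid carrier; Cst7, an inhibitor of cysteine proteases; Itgax, the integrin CD11c; Lpl, lipoprotein lipase; Spp1, the secreted phosphoprotein osteopontin; Axl, a receptor kinase of phagocytes; and Cd9, a tetraspanin. Apoe is made mainly by astrocytes in the healthy brain, and Lpl, Spp1, Axl and Cd9 also have sources outside microglia.

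Total RNA of whole cerebellum from C57BL/6 mice killed at day 28 after birth was hybridised to 24 single-colour arrays, in 12 groups of 2. Controls carried floxed alleles without a stated Cre (Derlin-1flox/flox or Derlin-2flox/flox), and knockouts (KO) also carried Cre driven by the nestin promoter, so that the controls lack Cre as well as the deletion. Nestin is active in progenitors of neurons and of astrocytes and oligodendrocytes, whereas microglia have another origin. 4-phenylbutyrate (4PBA, a chemical chaperone) at 200 mg/kg, or water as vehicle, was injected into the abdomen daily from day 14 to day 28. The groups were control and KO, each with vehicle and with 4PBA, in a numbered Derlin-1 series and in the Derlin-2 line, and control and KO with no vehicle named, and with 4PBA, in a lettered Derlin-1 series. Vehicle and unnamed arrays are together called arrays without 4PBA. Nothing states that replicates were separate animals, so p-values measure only the spread between these arrays.

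Each series lay on a slide of its own, with controls and knockouts in different columns and 4PBA in another row, so position and group cannot be told apart within a slide. The scanner software called 57.7% to 68.4% of an array's spots well above background. A level is a log2 intensity less the 75th percentile of its array, so a difference of 1 is a doubling. They are compared between arrays for 1 probe, never between probes.

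2 arrays went against their labels in 1 Derlin gene each. Derl2, the gene removed in the Derlin-2 line, stood at 1.72 on KO vehicle 1 of that line, against 1.40 to 1.58 on the line's controls and 0.18 to 0.48 on its other knockouts. Derl3, a related gene, went with that array's label, at -1.85 against -3.03 to -2.75 on the line's controls and -1.96 to -0.61 on its other knockouts. Derl3 stood between -0.63 and 0.37 on 7 Derlin-1 knockout arrays but at -2.27 on the lettered Derlin-1 array whose label reads KO 4PBA b (called array b from here on), within the controls' range of -3.14 to -1.69. The Derl1 probe gave overlapping levels in Derlin-1 knockouts and controls; where it lies relative to the deleted part is not given in the sources used here, so it checks no label. Results that rest on either array are given with and without it.

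Promoters of Trem2, Cst7 and Itgax are shown so that a reader can see what stands before their starts. RefSeq's promoter table (GRCm38.p6) gave 12 windows for 8 of the listed genes; Tyrobp and Lpl had no entry. The 250 bases before the start of Trem2, Cst7 and Itgax are at chr17:48346151-48346400, chr2:150570165-150570414 and chr7:128129300-128129549, all on the plus strand. Capitals mark GAGGAA on either strand, the core letters of sites for PU.1, the factor that specifies macrophages and microglia.
Trem2: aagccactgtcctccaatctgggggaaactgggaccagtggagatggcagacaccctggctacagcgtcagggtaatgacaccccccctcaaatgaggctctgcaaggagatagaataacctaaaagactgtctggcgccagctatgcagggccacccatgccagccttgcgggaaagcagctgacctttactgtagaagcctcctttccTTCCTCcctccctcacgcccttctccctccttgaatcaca
Cst7: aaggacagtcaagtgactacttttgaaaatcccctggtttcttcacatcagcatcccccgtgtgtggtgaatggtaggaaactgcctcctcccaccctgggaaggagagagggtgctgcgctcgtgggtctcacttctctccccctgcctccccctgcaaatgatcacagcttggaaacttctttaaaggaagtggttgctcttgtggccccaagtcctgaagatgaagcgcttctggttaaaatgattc
Itgax: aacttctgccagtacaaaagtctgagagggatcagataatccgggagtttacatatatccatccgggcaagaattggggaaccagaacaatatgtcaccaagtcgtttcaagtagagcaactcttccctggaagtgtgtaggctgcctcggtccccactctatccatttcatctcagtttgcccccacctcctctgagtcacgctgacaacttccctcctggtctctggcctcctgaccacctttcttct

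Trem2 held GAGGAA once, on the reverse strand 40 bases before the start. It was found at 6 sites in windows of 5 of the 8 genes, and in 23.3% of 32851 promoters of the same length. The site of Clec7a, which was not measured, lies in both of its overlapping windows and is counted once; of the 7 genes measured and in the table, 4 held a site. Several genes have more than 1 window, so shares of genes and of promoters are not on 1 scale. TGANTCA, the AP-1 letters, stood in 2 of the 12 windows, those of Trem2 (9 bases before the start) and Itgax (56 bases before), and in 6.75% of all promoters. The interferon response letters, GAAA, any pair of bases and GAAA, were found in 1 window, that of an Spp1 start, and in 2.98% of all promoters. CACGTG, the E-box letters, was found in none of the 12 windows and in 6.02% of all promoters. Both strands were searched and no match overlapped another motif's in Trem2. Such matches describe letters only.

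The receptor and its adaptor were higher in Derlin-1 knockouts than in controls on both slides. Without 4PBA, Trem2 stood at -0.10 and -0.11 on the numbered controls and at 1.63 and 1.60 on the numbered knockouts. On the lettered slide the controls stood at 0.28 and -0.15 and the knockouts at 2.09 and 1.68. Knockout and control arrays did not overlap on either slide, and the difference averaged over slides was 1.77 (SE 0.28, n = 4 arrays per genotype). Tyrobp, which was also above background everywhere, stood at -0.06 and -0.02 on numbered controls and 1.50 and 1.44 on numbered knockouts. Its lettered controls stood at 0.52 and 0.26 and its lettered knockouts at 1.97 and 1.77. The groups were again apart on both slides, by 1.50 (SE 0.25).

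Cst7 and Itgax, a protease inhibitor and an integrin that resting microglia hardly use, went from not well above background to measured. Without 4PBA, Cst7 stood at -5.87 and -7.88 on numbered controls and -2.01 and -1.78 on numbered knockouts. On the lettered slide it stood at -7.27 and -6.50 on controls and -2.18 and -2.10 on knockouts. None of these controls was well above background, and all 4 knockouts were. The knockouts were at least 15.2-fold higher on the numbered and at least 15.4-fold higher on the lettered slide. The bound takes the knockouts' mean over a floor for the controls. On each control array that floor was the faintest probe called well above background, or Cst7 itself where brighter. The measured means of Cst7 were -1.90 and -6.88 on the numbered slide and -2.14 and -6.88 on the lettered slide.

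Itgax followed the same order. Its numbered controls without 4PBA stood at -7.77 and -7.87 and its knockouts at -2.38 and -2.47. Its lettered controls stood at -6.80 and -6.28 and its knockouts at -3.32 and -2.40. Knockouts were at least 10.5-fold and at least 9.38-fold higher on the 2 slides. The measured means of Itgax were -2.42 against -7.82 on the numbered and -2.86 against -6.54 on the lettered slide. A second Itgax probe was well above background on none of the 24 arrays. It gives no level for either genotype.

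Over both treatments, Cst7 and Itgax were each well above background on 7 of 8 Derlin-1 knockout arrays, 1 of 8 Derlin-1 controls and 0 of 8 arrays of the Derlin-2 line. The knockout array missing in both cases was array b. The control arrays differed, numbered control 4PBA 1 for Cst7 at -5.08 and lettered control 4PBA b for Itgax at -4.66.

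**Figure D1:**
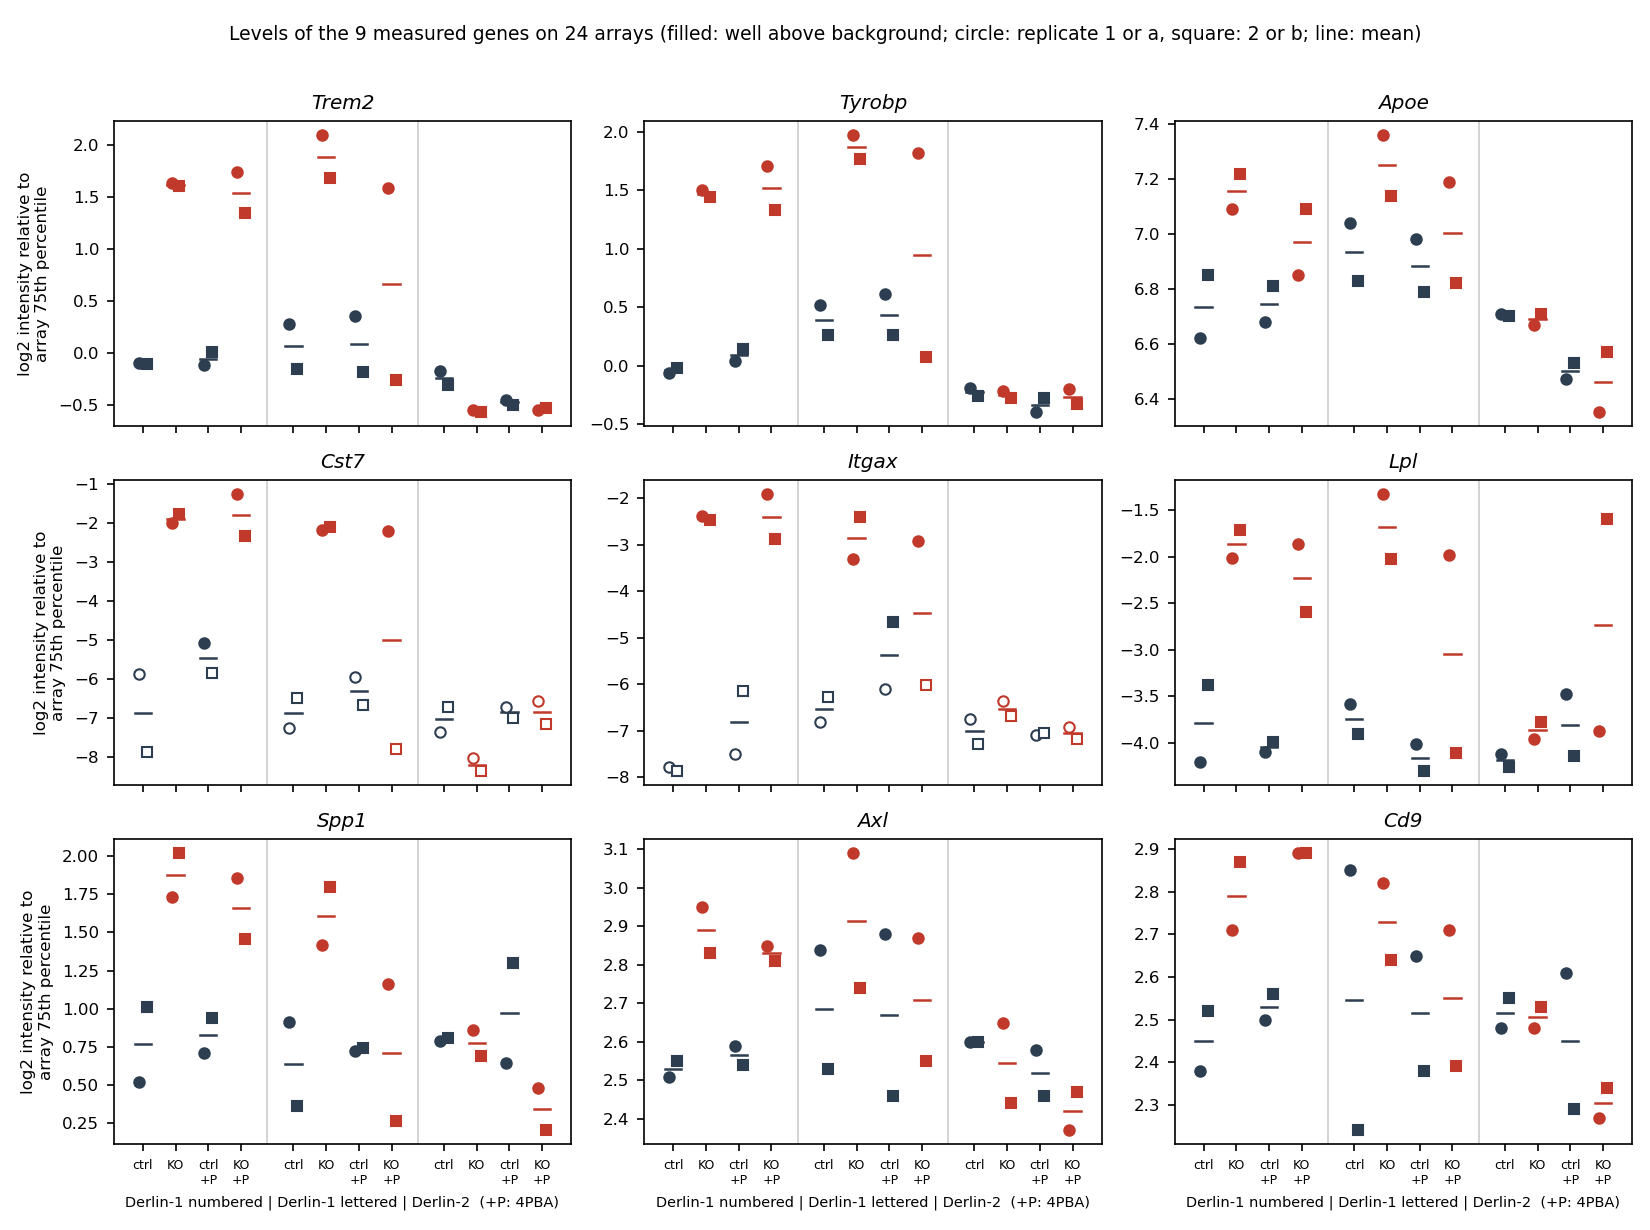
Log2 intensity relative to each array's 75th percentile for the 9 measured genes, with controls dark, knockouts red, filled marks well above background, circles for replicate 1 or a, squares for 2 or b, and a line at each group mean; axes differ between genes. Trem2 stands at 1.34 or higher on 7 Derlin-1 knockout arrays and at -0.26 on array b.

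The lipid genes differed in size. Lpl, which frees fatty acids from lipoproteins, stood at -4.21 and -3.38 on numbered controls without 4PBA and -2.02 and -1.71 on knockouts. On the lettered slide it stood at -3.59 and -3.91 on controls and -1.33 and -2.03 on knockouts. The genotypes did not overlap on either slide, and the difference was 2.0 (SE 0.47). A dimmer Lpl probe was well above background on all 4 of these knockouts and on none of the controls, which makes the knockouts at least 2.21-fold (numbered) and at least 4.08-fold (lettered) higher; its measured means were -4.68 against -7.71 and -4.06 against -7.22. The dimmest Lpl probe was well above background on 1 of the 24 arrays.

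Apoe was among the smaller differences. It stood at 6.62 and 6.85 on numbered controls without 4PBA and 7.09 and 7.22 on knockouts. On the lettered slide it stood at 7.04 and 6.83 on controls and 7.36 and 7.14 on knockouts. On each slide the lowest knockout lay above the highest control, on the lettered slide by less than its controls differed. The difference averaged over slides was 0.37 (SE 0.10). The other Apoe probe gave 0.54 (SE 0.11).

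Spp1, a secreted matrix protein, stood at 0.52 and 1.01 on numbered controls without 4PBA and 1.73 and 2.02 on knockouts. Its lettered controls stood at 0.91 and 0.36 and its knockouts at 1.42 and 1.80. No knockout overlapped a control, and the difference was 1.04 (SE 0.21). Axl and Cd9, surface proteins, differed by 0.30 (SE 0.11) and 0.26 (SE 0.12). Both were apart on the numbered slide and overlapped on the lettered slide. Over both treatments Axl spanned 2.46 to 2.88 on the 8 Derlin-1 controls and 2.55 to 3.09 on the 8 knockouts, and Cd9 spanned 2.24 to 2.85 and 2.39 to 2.89. The lowest knockout was array b for both genes; without it the knockouts began at 2.74 and 2.64, still within the controls' range. The Axl probes disagreed, since the dimmer one, well above background on 17 of 24 arrays, gave -0.18 (SE 0.43).

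In this comparison 7 of the 9 genes passed an adjusted p of 0.05, Axl and Cd9 being the others, against 10.6% of all 16934 genes (limma, Benjamini-Hochberg). The genes were chosen with this comparison known, so nothing is read from that count. The median difference was 1.50, against -0.01 over all genes, and 1.04 over the 7 genes measured on every array. In whole cerebellum, more microglia and more RNA per microglial cell cannot be told apart.

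Knockouts and controls injected with 4PBA give arrays outside that comparison. On the numbered slide the 7 genes measured on every array were higher in both knockouts than in both controls. How many of all genes did so was not counted. Trem2 stood at -0.12 and 0.01 on controls and 1.74 and 1.34 on knockouts. Tyrobp stood at 0.04 and 0.14 on controls and 1.71 and 1.33 on knockouts. The receptor and the adaptor thus lay apart by 1.60 (SE 0.39) and 1.43 (SE 0.35) in this series. Cst7 stood at -5.08 and -5.86 on controls and -1.27 and -2.35 on knockouts. Itgax stood at -7.50 and -6.14 on controls and -1.92 and -2.89 on knockouts, at least 8.45-fold higher, with measured means of -6.82 and -2.40. Both genes entered the fit through Derlin-1 knockout groups, this one among them, so nothing is read from that order. Lpl stood at -4.10 and -3.99 on controls and -1.86 and -2.60 on knockouts. Spp1 stood at 0.71 and 0.94 on controls and 1.86 and 1.46 on knockouts. Apoe stood at 6.68 and 6.81 on controls and 6.85 and 7.09 on knockouts. These gaps were smaller for Apoe than for Lpl or Spp1.

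On the lettered slide knockout a with 4PBA stood above array b for every gene. Trem2 stood at 0.35 and -0.18 on controls, 1.58 on knockout a and -0.26 on array b. Tyrobp stood at 0.61 and 0.26 on controls, 1.82 on knockout a and 0.07 on array b. Array b was thus below both controls for the receptor and its adaptor. Cst7 stood at -5.96 and -6.69 on controls, -2.22 on knockout a and -7.80 on array b. Itgax stood at -6.10 and -4.66 on controls, -2.93 on knockout a and -6.02 on array b. Neither gene was well above background on array b. Lpl stood at -4.02 and -4.31 on controls, -1.98 on knockout a and -4.11 on array b. Spp1 stood at 0.72 and 0.74 on controls, 1.16 on knockout a and 0.26 on array b. Apoe stood at 6.98 and 6.79 on controls, 7.19 on knockout a and 6.82 on array b. Axl stood at 2.88 and 2.46 on controls, 2.87 on knockout a and 2.55 on array b, so knockout a lay within the controls' range. Cd9 stood at 2.65 and 2.38 on controls, 2.71 on knockout a and 2.39 on array b. On array b, Trem2, Tyrobp, Cst7 and Spp1 lay below both controls, and Itgax, Lpl, Apoe, Axl and Cd9 lay between them.

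With all arrays, 0 of the 9 genes passed under 4PBA (limma), against 0.0472% of all genes (8 genes), and 3 of the 7 genes measured on every array had an unadjusted p under 0.05, against 12.8% of all genes. All 7 of those differences pointed to higher levels in knockouts, with a median of 0.41 against -0.02 over all genes. Trem2 differed by 1.09 (SE 0.28, 95% interval 0.49 to 1.68, adjusted p = 0.135). Tyrobp differed by 0.97 (SE 0.25, adjusted p = 0.141) and Lpl by 1.47 (SE 0.47, adjusted p = 0.214). The largest differences among genes measured on every array thus missed the threshold. For Cst7 and Itgax, well above background on 1 of these 4 controls each, the levels above stand without a difference or a test. Spp1 differed by 0.41 (adjusted p = 0.441), Apoe by 0.17 (adjusted p = 0.499), Cd9 by 0.20 (adjusted p = 0.542) and Axl by 0.15 (adjusted p = 0.604).

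Without array b, 3 of the 7 genes measured on every array rose in knockouts under 4PBA, against 6.19% of all genes (1048 genes). Trem2 rose by 1.54 (SE 0.15, adjusted p = 6.52e-05) and Tyrobp by 1.41 (SE 0.11, adjusted p = 1.44e-05). Lpl rose by 2.0 (SE 0.43, adjusted p = 0.0152). The receptor, its adaptor and the lipase were therefore the ones called. Counting Cst7 and Itgax 5 of the 9 passed, but both entered the fit through Derlin-1 knockout groups, so nothing is read from those calls. Spp1 differed by 0.63 (adjusted p = 0.0816), Apoe by 0.26 (adjusted p = 0.154), Cd9 by 0.27 (adjusted p = 0.282) and Axl by 0.23 (adjusted p = 0.301). The low levels of these genes on that array were known when it was left out, so the larger differences are in part fixed by that choice. Without knockout a instead, 0 were called, against 0.0945% of all genes, and the median over the 7 genes was 0.18. The lone lettered knockout is then assumed to vary like the other groups.

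**Figure D2:**
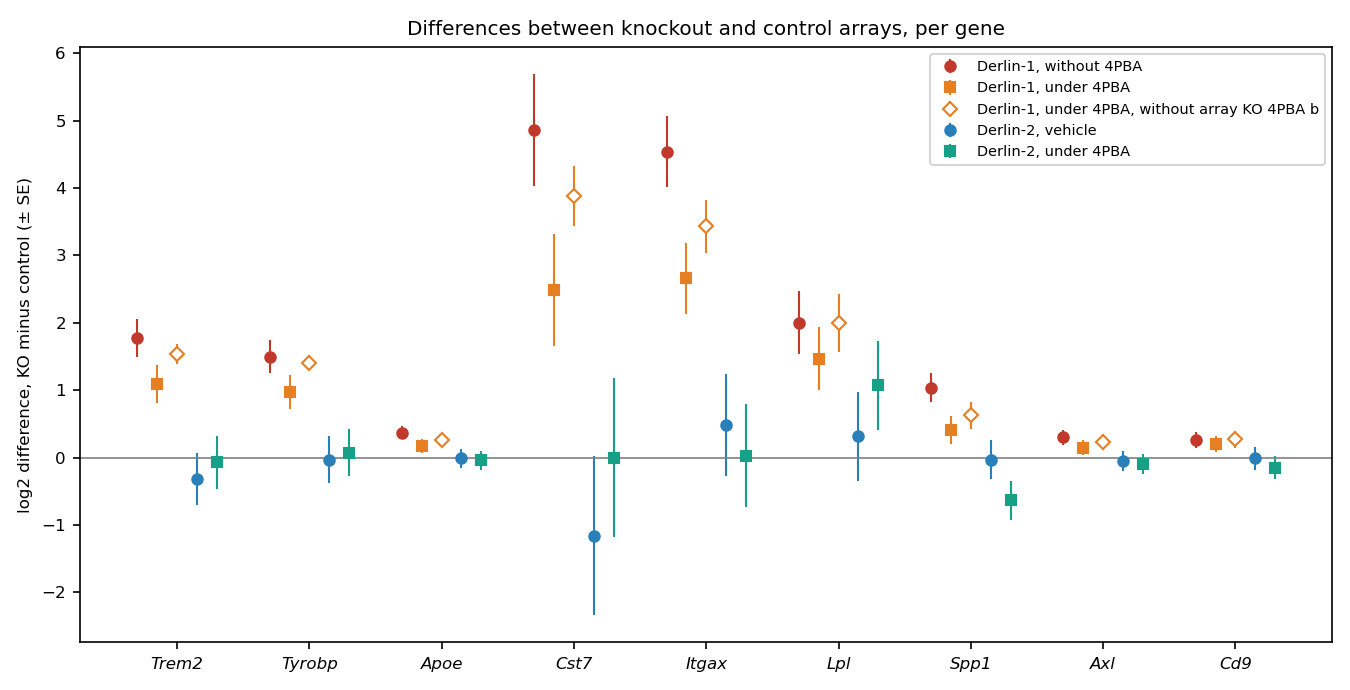
Log2 difference between knockouts and controls for each gene (points, with SE bars from the fit) in the Derlin-1 line without 4PBA, under 4PBA with all arrays and without array b (open), and in the Derlin-2 line with vehicle and under 4PBA. Cst7 and Itgax have the largest Derlin-1 differences, 4.86 and 4.54 without 4PBA, which are differences of measured values and no fold, since their controls were not well above background.

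In the Derlin-2 line none of the 9 genes passed the test. With vehicle 0 were called, against 0.118% of all genes (20 genes), 0 had an unadjusted p under 0.05, and the median was -0.03. Trem2 stood at -0.17 and -0.31 on controls and -0.55 and -0.57 on the arrays labelled knockout, a difference of -0.32 (SE 0.39, 95% interval -1.15 to 0.52, adjusted p = 0.909). Both knockout arrays lay below both controls. Tyrobp stood at -0.19 and -0.26 on controls and -0.22 and -0.28 on knockouts, so its groups overlapped. The adaptor's difference was -0.03 (95% interval -0.79 to 0.74). Cst7 and Itgax were well above background on 0 Derlin-2 arrays and have no fold there. Without KO vehicle 1, whose Derl2 level was at odds with its label, 0 were called, against 0.487% of all genes, and Trem2 differed by -0.33 (SE 0.50).

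Under 4PBA, too, 0 of the 9 were called in Derlin-2 knockouts, against 0.136% of all genes (23 genes), with 0 at an unadjusted p under 0.05 and a median of -0.04. Spp1 stood at 0.64 and 1.30 on controls and 0.48 and 0.20 on knockouts, a difference of -0.63 (SE 0.29, adjusted p = 1). Lpl stood at -3.48 and -4.15 on controls, -3.88 on knockout 1 and -1.60 on knockout 2. Lpl differed by 1.07 (SE 0.66, adjusted p = 1), by -0.07 (SE 0.64) without knockout 2 and by 2.21 (SE 0.64, adjusted p = 0.344) without knockout 1. The Lpl probes disagreed here: the dimmer one was well above background on knockout 1, at -5.17, the only array of the line where it was, and stood at -7.26 on knockout 2. Trem2 differed by -0.07 (95% interval -0.91 to 0.76) and Tyrobp by 0.07. Over both injections Apoe spanned 6.47 to 6.71 on the line's 4 controls and 6.35 to 6.71 on its knockouts, Axl 2.46 to 2.60 and 2.37 to 2.65, and Cd9 2.29 to 2.61 and 2.27 to 2.53. All 3 overlapped. The highest Axl level, 2.65, was that of KO vehicle 1, and without it the highest knockout stood at 2.47.

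The Derlin-1 and Derlin-2 knockout effects under 4PBA were compared directly, on arrays that do not enter the comparison without 4PBA. The genes were nonetheless chosen with earlier results of the whole series known, so these tests are not independent of that choice. With all arrays 0 of the 9 differed, against 0.065% of all genes (11 genes), and 2 of the 7 genes measured on every array had an unadjusted p under 0.05, against 4.12% of all genes. The Derlin-1 effect was the higher for those 7 genes, by 1.16 for Trem2 (SE 0.48, 95% interval 0.13 to 2.18) and 1.03 for Spp1 (SE 0.36), each with an adjusted p of 1 (limma). Without array b, Trem2's effect was higher by 1.62 in the Derlin-1 line (SE 0.24), Tyrobp's by 1.34 (SE 0.18) and Spp1's by 1.26. The low levels of these genes on array b were known when it was left out. The larger differences are therefore in part fixed by that choice. Cst7 and Itgax were well above background on none of the 8 Derlin-2 arrays, so no size or test of their difference is given.

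4PBA itself was set against its absence within each genotype. In Derlin-1 controls 0 of the 9 were called, against 0.0295% of all genes (5 genes), with 0 at an unadjusted p under 0.05 and a median of 0.04. In Derlin-1 knockouts 0 were called, against 0.0354% of all genes (6 genes), with 3 at an unadjusted p under 0.05, against 6.66% of all genes. The 7 genes measured on every array were all lower with 4PBA, with a median of -0.44 against -0.01 over all genes. These knockouts without 4PBA are the ones the genes were proposed from. Trem2 differed by -0.65 (SE 0.28, adjusted p = 0.734) and Spp1 by -0.56 (SE 0.21, adjusted p = 0.734). Over all 9 genes the median was -0.06 on the numbered slide and -0.92 on the lettered slide. Of the 7 genes, Tyrobp (0.05) and Cd9 (0.10) were higher with 4PBA on the numbered slide, and the rest were lower. Without array b, Trem2 differed by -0.19 (SE 0.15), Tyrobp by 0.00 (SE 0.11) and Cst7 by 0.01 (SE 0.44), and 0 were called against 0.0591% of all genes. Without knockout a instead, array b is the lone lettered knockout with 4PBA, and Trem2 differed by -1.11 (SE 0.15) and Tyrobp by -0.87 (SE 0.11). Both of them and Cst7, which was not well above background on array b, 3 in all, then passed the threshold, against 1.14% of all genes (193 genes). They rest on an array at odds with its label and on the knockouts the genes were proposed from, so nothing is read from these calls.

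In Derlin-2 controls 0 of the 9 were called with 4PBA, against 0.13% of all genes (22 genes), and in Derlin-2 knockouts 0, against 0.136% (23 genes); in both, 0 had an unadjusted p under 0.05. The medians were -0.06 and -0.13, against -0.04 and -0.06 over all genes. Trem2 differed by -0.23 (SE 0.39) in these controls and by 0.01 (SE 0.39) in these knockouts. Without KO vehicle 1, 0 were called in the knockouts, against 0.487% of all genes, the median was -0.02 and Trem2 differed by 0.03 (SE 0.50).

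Other genes of the pathway were read from lists, which were also chosen with earlier results known. Array b was left out with its low levels of Trem2 and the other genes known. List results without it are in part fixed by that choice. A list of 12 genes of TREM2 signalling was not split by whether a gene passes the signal on or restrains it. In Derlin-1 knockouts without 4PBA 5 were called higher and 0 lower, against 5.26% of all genes called higher, with a median of 0.62. They were Blnk, an adaptor downstream of SYK (1.35, SE 0.21), Ptpn6, the phosphatase SHP-1 (1.24, SE 0.22), Vav1, an exchange factor (1.03, SE 0.17), Inpp5d, the phosphatase SHIP1 (0.98, SE 0.14), and Plcg2, the phospholipase (0.46, SE 0.11). Syk itself differed by 0.53 (SE 0.17) and was not called. Under 4PBA 0 of the 12 were called with all arrays, against 0.0472% of all genes. Without array b, 5 were called higher, against 3.51% of all genes, with Blnk at 1.19 (SE 0.14, adjusted p = 0.000301) and Ptpn6 at 1.17 (SE 0.14, adjusted p = 0.000301). In the Derlin-2 line 0 of the 12 were called with either injection, against 0.118% (vehicle) and 0.136% (4PBA) of all genes. With vehicle and without KO vehicle 1 their median was -0.11.

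Of 28 further genes of the activated state, 14 were called higher and 0 lower in Derlin-1 knockouts without 4PBA, against 5.26% of all genes called higher, with a median of 0.42. Ccl3, Ccl4, Lilrb4a and Cd52 had the largest 4 values. The places of Ccl3 and Lilrb4a among them are not defined, since not all of their controls were well above background. Ccl3, a chemokine, was well above background on 4 of these 4 knockouts and 0 of 4 controls, so no size is given. The chemokine Ccl4 differed by 2.49 (SE 0.46) and Cd52, a surface glycoprotein, by 1.92 (SE 0.30), both measured on all of these arrays. Lilrb4a, an inhibitory receptor, was well above background on 4 of these 4 knockouts and 2 of 4 controls, so no size is given for it either. Under 4PBA 0 of the 28 were called with all arrays, against 0.0472% of all genes. Without array b, 11 were called higher, against 3.51% of all genes, with Cd52 at 1.67 (SE 0.21, adjusted p = 0.00041). Ccl3, Ccl4 and Lilrb4a were among the 11 and had 1, 1 and 2 of 4 controls well above background. In the Derlin-2 line 0 of the 28 were called with either injection, against 0.118% (vehicle) and 0.136% (4PBA) of all genes. With vehicle and without KO vehicle 1 their median was -0.12.

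Markers of microglia in general moved with these genes. Of 10, 9 were called higher in Derlin-1 knockouts without 4PBA, against 5.26% of all genes, with a median of 1.31; Itgam, the integrin CD11b, differed by -0.12 (SE 0.10). Their mean log2 level lay between -0.03 and 0.31 on Derlin-1 controls and between 0.92 and 1.44 on 7 Derlin-1 knockouts, and at 0.05 on array b. Under 4PBA 0 of the 10 were called with all arrays, against 0.0472% of all genes, with a median of 0.83. Without array b the median was 1.15. In the Derlin-2 line 0 of the 10 were called with either injection, against 0.118% (vehicle) and 0.136% (4PBA) of all genes. Without KO vehicle 1 the knockouts with vehicle are 1 array. Ptprc, the leukocyte phosphatase CD45, then differed by 1.80 (SE 0.33), while the median of the 10 was -0.16. Of 9 markers of resting microglia 3 were called higher in Derlin-1 knockouts without 4PBA, Cx3cr1 (1.04, SE 0.17), Gpr34 (0.84, SE 0.18) and P2ry13 (0.66, SE 0.15), and Olfml3 was called lower, at -0.61 (SE 0.14), against 5.37% of all genes called lower. P2ry12 and Tmem119, which mark resting microglia, differed by 0.24 (SE 0.19) and 0.29 (SE 0.10). Trem2, Tyrobp and Lpl thus differed by as much as or more than the microglial median, and Spp1, Apoe, Axl and Cd9 by less; these differences between genes were not tested.

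Markers of other cells gave these values in the same comparison. Of 8 genes of border macrophages and monocytes, 7 were in the fit and 3 were called higher, Cd163 (1.19), F13a1 (0.89) and Lyve1 (0.84), with a median of 0.84, against 5.26% of all genes called higher; Ccr2, a receptor of monocytes, was well above background on 0 arrays. Of 3 neutrophil genes in the fit 0 were called, but all 3 differed upwards, with a median of 0.88: S100a8 (0.92, SE 0.52), S100a9 (0.88, SE 0.51) and Camp (0.19, SE 0.17). Of 3 T cell genes in the fit 0 were called, with a median of -0.01, and Cd8a was well above background on 0 arrays and Cd3g on 1. Of 7 genes of astrocytes and Bergmann glia 1 was called, Gfap, the filament of reactive astrocytes, at 1.25 (SE 0.18), against the same 5.26%. Of 4 granule neuron genes 3 were called lower, against 5.37% of all genes, with a median of -0.50, and 0 of 5 oligodendrocyte, 4 endothelial and 4 Purkinje cell genes were called. The part of these cells in the levels of Trem2 and the other genes was not tested.

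**Figure D3:**
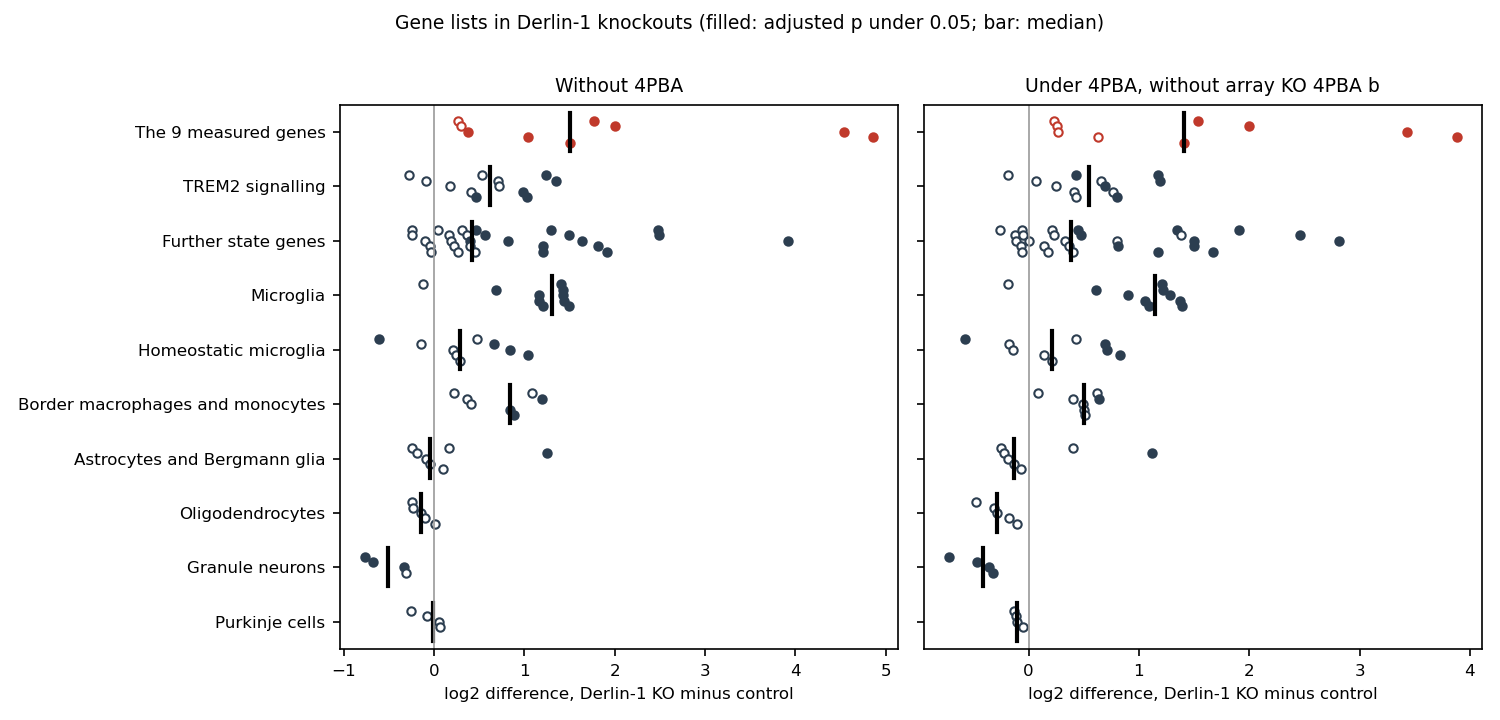
Log2 difference between Derlin-1 knockouts and controls for the 9 measured genes (red) and the genes of 9 other lists (dark), without 4PBA and under 4PBA without array b; filled points were called, and bars are medians. The medians without 4PBA are 1.50 for the 9 genes but 1.04 for the 7 measured on every array, 1.31 for microglia and 0.29 for resting microglia.

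The genes varied together over arrays. After each slide's mean was subtracted, the 21 pairs of the 7 genes measured on every array had Pearson correlations from 0.56 (Lpl with Cd9) to 0.99 (Trem2 with Tyrobp), with a median of 0.78, over 24 arrays that share the Derlin-1 difference. Among 14259 genes well above background on all arrays, those most like Trem2 were C1qc (0.994), C1qb (0.989), Fcer1g (0.981), Ly86 (0.978) and C1qa (0.978). The C1q genes encode the chains of complement C1q, and Fcer1g an adaptor of immune receptors. Those most like Apoe were Sh3bp2 (0.908), Vsir (0.905), Tnni1 (0.89), Ano10 (0.886) and Cyba (0.885). None of the 10 was chosen for a role. Without array b the pairs ran from 0.54 to 0.99 with a median of 0.76, and without KO vehicle 1 of the Derlin-2 line from 0.57 to 0.99 with a median of 0.78. C1qc stayed the gene most like Trem2 in both cases (0.994 and 0.995), and Sh3bp2 the one most like Apoe (0.903 and 0.912).

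**Figure D4:**
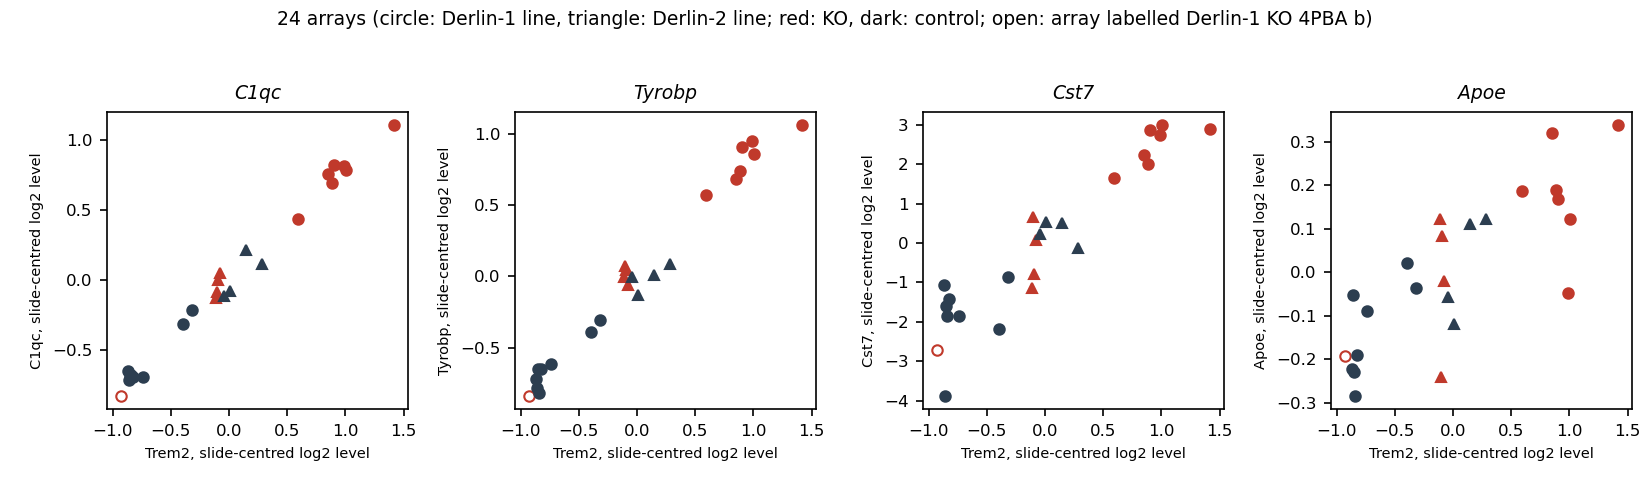
Slide-centred log2 level of C1qc, Tyrobp, Cst7 and Apoe against that of Trem2 on 24 arrays, with knockouts red, controls dark, the Derlin-2 line as triangles and array b open. C1qc follows Trem2 with a correlation of 0.994, and the open point, at -0.93 for Trem2, lies below the Derlin-1 controls, the lowest of which is at -0.87.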

How the data were processed

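Processed signals of 24 arrays were used. These are linear intensities after the scanner software's background subtraction, written with Agilent Feature Extraction 10.7.1.1, per the submitters' processing notes and the file headers; they were deposited without normalization between arrays. The deposited series table equalled them (largest log2 difference 1.74e-06 over 56305 probes). The deposited flag columns, of other units, gave outlier and background calls per the file headers. The headers name another build than the reference, so no coordinate was taken from the gene table.

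Outlier spots (52 to 637 per array) were dropped, no spot was saturated, and log2 intensities were lowered by the array's 75th percentile (890 to 1169). Symbols came from transcript accessions (32994 of 56605 probes). A gene was its probe with the highest mean among 24783 named probes kept. All arrays entered 1 limma fit (3.58.1, R 4.3.3; 12 group means, 12 residual degrees of freedom, prior 2.13), with Derlin-1 comparisons averaged over both series and Benjamini-Hochberg adjustment over all genes, called under 0.05. The script was tested on simulated data. Only 2 arrays per group limit the precision. Genes and lists were chosen with earlier results of these data known. All listed genes are named; of other lists, up to 4 called genes per direction with the largest change, and further ones chosen after their values were seen. Beside the 9 markers of resting microglia counted, 1 more is not reported here. Alternatives covered background, scaling, filter, probe rule, array weights, slide, series and each array left out.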

Additional observations from a re-analysis of the deposited data

Results flagged for a closer look

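In 4 cases every knockout or 4PBA array of one line lay on 1 side of the mean of its comparison arrays. Every such array of the other line lay on the opposite side. The check covered the 9 genes in each comparison made in both lines, and the share of all genes was not counted. None of these differences between lines was tested. Without 4PBA the knockout difference was 1.77 for Trem2 in the Derlin-1 line and -0.32 in the Derlin-2 line, or -0.33 without KO vehicle 1. For Cst7 it was 4.86 in the Derlin-1 line and -1.16 in the Derlin-2 line, where 0 arrays had it well above background, so that the second value has no measured direction. In controls, 4PBA against its absence gave 1.08 for Itgax in the Derlin-1 line and -0.06 in the Derlin-2 line, where 1 of the 8 Derlin-1 controls and 0 Derlin-2 arrays had it well above background, so that neither value has a measured direction. For Lpl the same comparison gave -0.33 and 0.38. In these last 2 cases the arrays with and without 4PBA overlapped in the Derlin-2 line, and for Lpl on the numbered Derlin-1 slide too. Groups of 2 arrays are too small for a test of single outlying arrays.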

How the results depend on the processing

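In Derlin-1 knockouts without 4PBA, 7 genes were called with both series, 1 with the numbered series alone and 4 with the lettered series alone, with medians of 1.51 and 1.48 against 1.50; over all genes these fits called 1800, 2 and 599. As in the text, calls in this comparison describe the arrays the genes were proposed from. Leaving out each array gave 5 to 8 there, 0 to 5 under 4PBA, 0 to 3 for 4PBA in Derlin-1 knockouts and 0 to 4 for the Derlin-1 effect less the Derlin-2 effect under 4PBA. The 5 and the 4, each counting Cst7 and Itgax, came without the lettered Derlin-1 array whose label reads KO 4PBA b, the 3 without knockout a. In each of these fits the share of all genes called rose as well, and the group concerned was left with 1 array. For the other arrays left out that share is not given here. Nothing is therefore read from the counts with an array left out. In Derlin-1 knockouts without 4PBA, Apoe's call was lost under median scaling (0.26) and with every probe a row of its own (0.37), and on leaving out numbered control vehicle 1 (0.31), numbered KO vehicle 1 (0.40) or 2 (0.34), lettered untreated control b (0.32) or lettered untreated KO a (0.32). Lpl's was lost without numbered control vehicle 1 (1.79), numbered KO vehicle 2 (1.92) or lettered untreated KO a (1.82). Axl was called without lettered untreated KO b (0.38) and under the replicate block (0.30), and Cd9 without lettered untreated control a (0.41). The cause was not tested. The replicate block called 8 against 7 genes without 4PBA, where it called 2187 against 1800 of all genes, and 0 elsewhere. It rests on replicate numbers and letters, which are not stated to pair arrays. Over the genes fitted, deviations of same-numbered arrays correlated from -0.16 to 0.41. On the lettered slide Trem2, Tyrobp, Apoe, Axl and Cd9 stood higher on replicate a than on replicate b in every group. Array median scaling moved the median of all genes by up to -0.24 (4PBA in Derlin-2 knockouts), and by -0.11 in Derlin-1 knockouts without 4PBA. Of gene values, 2790 kept direction and side of the threshold, 65 moved, 19 lost and 15 gained a call, and none of the called ones reversed. The normexp correction used median spot signals and was chosen after seeing the data, and the planned one on mean signals was not run. With a filter on all 24 arrays Cst7 and Itgax had no value. Signal over background limits both.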
